A study of Mus musculus with 6 samples.

Results

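The genes described here are the glycerolipid acyltransferases and lipins of the liver, the enzymes that build triglyceride: Mogat1, Mogat2, Dgat1, Dgat2, Gpam, Agpat2, Agpat3, Lpin1, Lpin2 and Lpin3. They were taken by name as a pathway, with earlier results of these data known, and all 10 matched a probe set among the 22180 genes measured. RNA came from livers of 6 C57BL/6J males and was read on Affymetrix whole-transcript arrays, with a separate array for each mouse. The 3 HKO mice carried floxed alleles of Slug (symbol Snai2, a zinc finger repressor related to Snail) and the transgene albumin-CreERT2, a Cre recombinase driven by the albumin promoter and switched on by tamoxifen, so that the deletion is aimed at hepatocytes. The 3 Con mice were Slug f/f littermates. All 6 mice were 8 weeks old when they went onto a high fat diet (fat supplied 60% of its calories), and they ate it for 11 weeks. No group on chow was measured. The labels do not say whether Con mice carried Cre or received tamoxifen, nor when Cre was activated. The comparison asks which of these transcripts differ when hepatocytes lack Slug during high fat feeding.

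Triglyceride is assembled along 2 routes that meet at diacylglycerol. In the glycerol phosphate route, Gpam attaches a fatty acid to glycerol 3-phosphate at the mitochondrial outer membrane, the Agpat enzymes add another to give phosphatidate, and the lipins remove the phosphate. In the monoacylglycerol route, the Mogat enzymes acylate monoacylglycerol directly. Dgat1 and Dgat2 then add the last fatty acid. Mogat2 is known as the main form of the small intestine, and Mogat1 as a form that rises in fatty mouse liver and is a target of the nuclear receptor PPARG. Lipins also act in the nucleus as coregulators of transcription.

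Values are the authors' log2 expression values, and differences are HKO minus Con on that scale. Arrays were closely alike, with correlations over all genes from 0.989 to 0.992 within groups and from 0.986 to 0.988 between groups. The median over genes lay at 3.95 on every array, and no filter on low values was applied. Snai2, the targeted gene, stood at 4.62, 5.23 and 5.69 in HKO livers, against 7.74, 7.69 and 7.39 in Con livers. The groups did not overlap, and the difference was -2.43 ± 0.25 (SE; limma adjusted p = 0.0145). That call was lost when HKO replicate 2 (adjusted p = 0.0621), Con replicate 1 (0.0758) or Con replicate 2 (0.0927) was left out, and with each gene's own variance (0.234), where 0 genes passed. The labels do not place the floxed part of the gene against the probes. Hepatocyte markers bore out the tissue label: Alb, serum albumin, averaged 12.45 in HKO and 12.44 in Con livers. In limma 0 of 10 hepatocyte markers passed adjusted p 0.05, against 0.203% of all genes. Of the 10, 2 had an unadjusted p under 0.05, against 11.9% of all genes.

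Among the 10 genes, Mogat1 fell in HKO livers and was the only one to pass adjusted p 0.05 in limma. Gpam and Agpat2, both enzymes of the glycerol phosphate route, had lower values in all HKO arrays but missed that threshold. Dgat2 (0.10) and Lpin3 (-0.20) also did not overlap between groups. The 5 genes that overlapped differed by 0.30 or less. None of these genes passed the threshold. Over all genes 0.113% were called lower, 0.0902% higher and 0.203% in either direction, beside 1 lower and 0 higher of these 10.

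The DNA before the transcription start is shown for the 2 genes with the largest differences and for the 2 whose windows hold the E-box that Snail family proteins are known to bind. RefSeq start sites of the build GRCm38.p6 gave windows of 300 bases, from 250 before to 50 after the start, for 7 of the 10 genes and 11 starts in all. Mogat2, Dgat1 and Dgat2 had no entry in the table. Capitals mark a match on either strand to the Snail E-box CAGGTG (its reverse is CACCTG), the nuclear receptor element AGGTCA or the TATA box TATAAA, and none of these matches overlapped another. The lines give Mogat1 at chr1:78510810-78511109 on the plus strand, Gpam at chr19:55099428-55099727 on the minus strand, Agpat3 at chr10:78351651-78351950 on the minus strand and Lpin3 at chr2:160887918-160888217 on the plus strand, each read in the direction of transcription.
Mogat1: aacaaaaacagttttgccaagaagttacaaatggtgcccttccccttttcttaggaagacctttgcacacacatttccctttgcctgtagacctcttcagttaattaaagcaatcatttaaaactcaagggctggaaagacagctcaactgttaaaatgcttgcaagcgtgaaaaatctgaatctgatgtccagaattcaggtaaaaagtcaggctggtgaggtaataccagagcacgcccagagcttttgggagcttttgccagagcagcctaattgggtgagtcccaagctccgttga
Gpam: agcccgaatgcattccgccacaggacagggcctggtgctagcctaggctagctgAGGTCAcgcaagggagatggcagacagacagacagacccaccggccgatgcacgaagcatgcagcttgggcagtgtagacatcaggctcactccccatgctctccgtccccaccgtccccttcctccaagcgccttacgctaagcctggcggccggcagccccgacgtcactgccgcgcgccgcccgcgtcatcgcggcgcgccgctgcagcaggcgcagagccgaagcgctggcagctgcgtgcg
Agpat3: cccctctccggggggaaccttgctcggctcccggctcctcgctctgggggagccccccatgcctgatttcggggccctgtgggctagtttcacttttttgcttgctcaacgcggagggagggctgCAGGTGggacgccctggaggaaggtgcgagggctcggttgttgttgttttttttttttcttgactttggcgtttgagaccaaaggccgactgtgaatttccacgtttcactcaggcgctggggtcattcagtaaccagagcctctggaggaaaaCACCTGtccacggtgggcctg
Lpin3: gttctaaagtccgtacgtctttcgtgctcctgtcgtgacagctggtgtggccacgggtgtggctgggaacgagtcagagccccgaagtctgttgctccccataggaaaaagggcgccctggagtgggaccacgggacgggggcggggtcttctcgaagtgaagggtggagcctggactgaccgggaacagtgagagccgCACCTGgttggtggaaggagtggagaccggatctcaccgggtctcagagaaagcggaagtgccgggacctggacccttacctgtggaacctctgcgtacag
The Mogat1 window held none of the 3 motifs. The E-box occurred in Agpat3 at -125 to -120 and at 30 to 35 relative to the start, and in 1 of 2 Lpin3 starts at -51 to -46. It was thus present in 2 of 11 windows, and in 20.2% of the 32841 windows of that length in the whole table. The AGGTCA motif lay at -196 to -191 in 1 of 2 Gpam starts and at -74 to -69 in Lpin1, beside 16.3% of all windows. No TATA box was found in the 11 windows, while 13.6% of all windows held one. These are matches of letters in short windows and do not show binding.

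Mogat1, the monoacylglycerol acyltransferase of fatty mouse liver, held log2 values of 3.40, 3.60 and 4.12 in HKO livers, against 5.05, 5.63 and 5.37 in Con livers. Every HKO array lay below every Con array, and the highest HKO array stayed well short of the lowest Con array. The means were 3.71 ± 0.38 in HKO and 5.35 ± 0.29 in Con livers (SD, n = 3 each), a difference of -1.64 ± 0.21 (SE) with a 95% interval from -2.13 to -1.16 and a limma adjusted p of 0.0344. On the array scale this is 3.12-fold lower in HKO livers. The HKO mean lay below the median over genes of 3.95 and is not shown to be above background, so the size of the change is uncertain. An exact permutation test over the arrays, two-sided, returned p = 0.1, and no smaller p is possible with groups of 3. In a piece of whole liver, fewer cells that express a gene and less of its RNA per cell cannot be told apart.

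The Mogat1 call was lost in 5 of the 6 refits that left out an array. Its limma adjusted p was 0.0972 with HKO replicate 1 left out, 0.106 with HKO replicate 2, 0.0758 with Con replicate 1, 0.157 with Con replicate 2 and 0.0870 with Con replicate 3 left out, and it held only in the refit lacking HKO replicate 3 (0.0414). The difference itself ran from -1.85 to -1.49 over these refits. With each gene's own variance in place of limma's shared one, the adjusted p was 0.292, a setting in which 0 of 22180 genes passed and 2422 had an unadjusted p under 0.05.

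**Figure D1:**
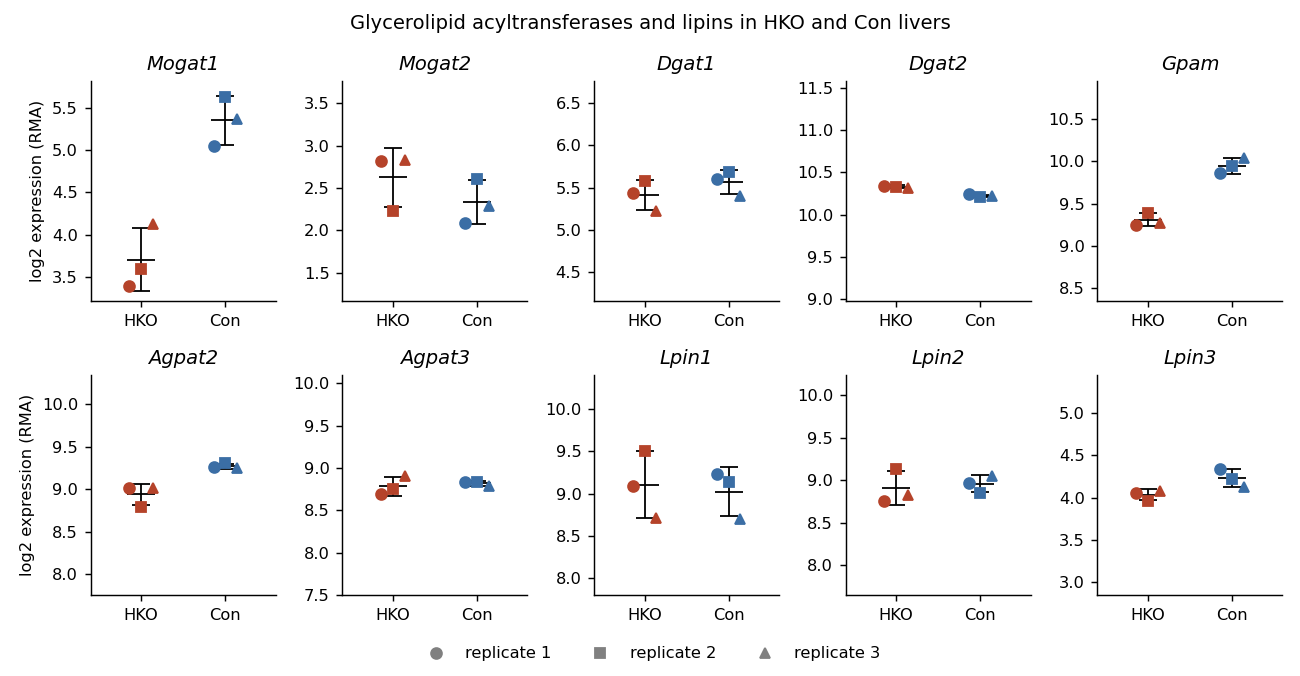
Log2 expression (RMA, vertical axis) of the 10 genes in HKO and Con livers, with 1 point per array, the mean as a horizontal bar and the SD as whiskers (n = 3 per group). All panels span the same number of log2 units, so heights can be compared as differences; Mogat1 shows the largest gap, with means of 3.71 in HKO and 5.35 in Con livers.

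Mogat2, the intestinal relative of Mogat1, was near the bottom of the array scale in both groups. It held 2.82, 2.22 and 2.83 in HKO livers, against 2.09, 2.61 and 2.29 in Con livers. The groups overlapped and all 6 values lay below the median over genes, so neither group is shown to be above background. The difference was 0.30 ± 0.20 (SE) with an interval from -0.16 to 0.75 (limma adjusted p = 0.614). In the RefSeq annotation of GRCm38.p6, Mogat2 and Dgat2 are neighbouring protein-coding genes. Enterocyte genes Vil1 (2.66 in HKO and 2.65 in Con livers), Alpi (2.48 and 2.55, in the same order) and Lct (2.80 and 2.74) also lay below the median over genes. The remaining enterocyte marker measured, Fabp2, which hepatocytes express as well, averaged 9.07 in HKO and 9.63 in Con livers with no overlap (-0.55 ± 0.10, SE; limma adjusted p = 0.0935).

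For the last step of both routes, neither diacylglycerol acyltransferase passed the test. Dgat2, the enzyme known to handle much of the newly made fatty acid in liver, had 10.34, 10.33 and 10.31 in HKO livers, against 10.24, 10.21 and 10.22 in Con livers. The HKO arrays were all higher, and the arrays within each group hardly differed, with SDs of 0.018 in HKO and 0.015 in Con livers. Only 0.0766% of genes had a within-group spread this small or smaller. The difference was 0.10 ± 0.09 (SE), with an interval from -0.11 to 0.31 and a limma adjusted p of 0.713, where limma's shared variance sets the error. Judged by its own spread alone, Dgat2 had an unadjusted p of 0.00138 and an adjusted p of 0.230, in a setting where 0 of 22180 genes passed. Dgat1, which belongs to another protein family and also works in intestine and fat, had 5.44, 5.57 and 5.23 in HKO livers, against 5.60, 5.69 and 5.41 in Con livers. These values overlapped, and the difference was -0.15 ± 0.13 (SE) with an interval from -0.45 to 0.15 (limma adjusted p = 0.707).

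In the glycerol phosphate route, Gpam had the second largest difference of the 10 genes. Gpam, whose enzyme commits acyl-CoA to glycerolipid synthesis and is a target of the transcription factor SREBP in liver, held 9.25, 9.40 and 9.28 in HKO livers, against 9.86, 9.94 and 10.04 in Con livers. The groups were clearly apart, with narrow spreads of 0.08 in HKO and 0.09 in Con livers (SD, n = 3 each). The difference was -0.64 ± 0.10 (SE), or 1.56-fold lower in HKO livers, with an interval from -0.88 to -0.40. Its limma adjusted p of 0.0714 missed the threshold. With a variance trend it was 0.00348, with the trend and a robust fit 0.00222, and over the 11090 genes above the median level 0.0273. Over the refits without 1 array each, its difference ran from -0.69 to -0.59 with adjusted p values from 0.137 to 0.232.

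Agpat2, which makes phosphatidate and whose loss causes lipodystrophy in people and mice, had 9.02, 8.80 and 9.01 in HKO livers, against 9.27, 9.30 and 9.24 in Con livers. Here too no HKO array reached a Con array. The difference was -0.33 ± 0.10 (SE), or 1.26-fold lower, with an interval from -0.57 to -0.09. Its unadjusted p in limma was 0.0130 and its adjusted p 0.292. Agpat3, which makes phosphatidate as well and favours polyunsaturated fatty acids, held 8.69, 8.75 and 8.91 in HKO livers, against 8.84, 8.83 and 8.79 in Con livers. The HKO arrays lay on both sides of the Con arrays, and the difference was -0.035 ± 0.10 (SE) with an interval from -0.27 to 0.20.

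None of the lipins passed the test, and they behaved differently within groups. Lpin1, a fasting- and clock-responsive phosphatidate phosphatase and coregulator, held 9.09, 9.51 and 8.72 in HKO livers, against 9.23, 9.14 and 8.70 in Con livers. The groups overlapped, and the spread between mice was wide, with SDs of 0.40 in HKO and 0.29 in Con livers. The difference was 0.08 ± 0.22 (SE), with an interval from -0.41 to 0.58. It turned to -0.12 without HKO replicate 2 and to -0.08 without Con replicate 3, so no direction can be given for Lpin1.

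Lpin2, the lipin known for its high share in liver, had 8.76, 9.13 and 8.83 in HKO livers, against 8.97, 8.85 and 9.05 in Con livers. The groups overlapped, with a difference of -0.05 ± 0.13 (SE) and an interval from -0.34 to 0.24. Lpin2 was the only one of the 10 genes with 2 probe sets, and the dimmer one gave 8.16, 7.98 and 7.91 in HKO livers, against 8.01, 8.19 and 8.16 in Con livers, a difference of -0.10. Lpin3, a lipin of intestine and fat, had 4.06, 3.96 and 4.08 in HKO livers, against 4.34, 4.22 and 4.13 in Con livers. All HKO arrays were lower by a small margin, with a difference of -0.20 ± 0.10 (SE), an interval from -0.43 to 0.04 and a limma adjusted p of 0.512.

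**Figure D2:**
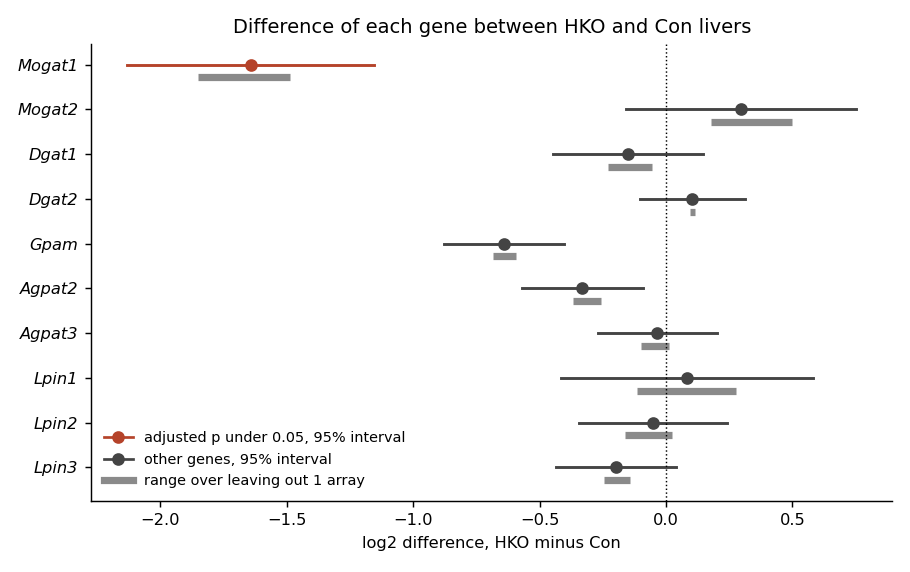
Log2 difference, HKO minus Con (horizontal axis), of each gene with limma's 95% interval (thin line) and the range of the difference when each array was left out in turn (grey bar). The intervals of Mogat1 (-2.13 to -1.16), Gpam (-0.88 to -0.40) and Agpat2 (-0.57 to -0.09) lie below 0; the other 7 include 0.

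Counted together, 7 of the 10 genes had a lower and 3 a higher mean in HKO livers, where 51.8% of all genes had a lower and 48.2% a higher mean. HKO arrays did not overlap with Con arrays in 5 of the 10 genes, against 18.2% of all genes. Of these 5, 4 were lower in HKO livers, against 10.1% of all genes, and 1 was higher, against 8.05%. At an unadjusted p under 0.05 in limma, 3 of the 10 were lower and 0 higher, against 6.56% and 5.31% of all genes (11.9% in either direction). Because the genes were taken with earlier results of these data known, these counts are no independent evidence. The median difference was -0.10 over the 10 genes and -0.05 over the 9 without Mogat1, and -0.0081 over all genes tested. By array, the 10 genes were above their own mean over 6 arrays in 3, 4 and 3 cases in HKO replicates 1 to 3, against 8, 8 and 4 in Con replicates 1 to 3. Con replicate 3 thus stood nearer to the HKO arrays in this count than the other Con arrays did.

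Other genes of the pathway were read from lists drawn up around these enzymes, with earlier results of these data known. Of the 72 measured genes, 2 were called, Cidea and Fabp4, both lower in HKO livers, where 0.113% of all genes were called lower. Both stand in the PPARG list described below, which was drawn up after lower values of several of its genes were known. The count is thus no independent evidence, and no other list held a called gene. Of the 11 further acyltransferases of the same families, 0 passed in limma, against 0.203% of all genes. At an unadjusted p under 0.05 there was 1, against 11.9%. That gene was Gpat3, a glycerol phosphate acyltransferase of the endoplasmic reticulum, with a mean of 6.09 in HKO and 6.47 in Con livers and a difference of -0.39 ± 0.14 (SE; adjusted p = 0.333). Agpat5 differed by -0.15 and Gpat4, another microsomal glycerol phosphate acyltransferase, by -0.13. Their median difference was -0.06.

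Upstream of the acyltransferases, none of the 6 measured genes for glycerol and glycerol 3-phosphate supply passed in limma. Of the 6, 0 had an unadjusted p under 0.05, against 11.9% of all genes. Gpd1, which makes glycerol 3-phosphate, averaged 9.49 in HKO and 9.72 in Con livers, a difference of -0.23 ± 0.11 (SE). Its relative Gpd1l stood at 0.22 and the glycerol channel Aqp3 at -0.28. Among 3 measured acyl-CoA ligases, which activate fatty acids, 0 passed in limma. At an unadjusted p under 0.05 there was 1, against 11.9% of all genes. That was Acsl5, with 8.84, 9.03 and 8.87 in HKO livers, against 9.26, 9.17 and 9.26 in Con livers, a difference of -0.32 ± 0.10 (SE; adjusted p = 0.294). Acsl4 (0.25) and Acsl6 (0.08) had higher means in HKO livers.

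Of the proteins that act on lipins or at their sites, Cnep1r1 and Ctdnep1, the subunits of a phosphatase that activates lipins, differed by -0.14 and -0.10, and Bscl2, the droplet assembly protein seipin, by -0.07. None of these 3 passed in limma, and 0 had an unadjusted p under 0.05, against 11.9% of all genes. The 17 measured enzymes that draw on phosphatidate and diacylglycerol for other lipids went both ways, with a median difference of 0.06. In limma 0 of them passed, with 1 lower and 2 higher at an unadjusted p under 0.05, against 6.56% and 5.31% of all genes. Dgka, a kinase that turns diacylglycerol back to phosphatidate, averaged 7.15 in HKO and 6.73 in Con livers (0.43 ± 0.11, SE; adjusted p = 0.220). Plpp2, a lipid phosphate phosphatase, averaged 5.72 in HKO and 6.26 in Con livers (-0.53 ± 0.14, SE; adjusted p = 0.221). Pemt, which makes phosphatidylcholine by methylation, differed by 0.27.

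Lipases and related enzymes that can release monoacylglycerol or diacylglycerol also split, with 9 measured and 0 past the threshold in limma. Of the 9, 1 was lower and 1 higher at an unadjusted p under 0.05, against 6.56% and 5.31% of all genes. Pnpla2, the adipose triglyceride lipase, held 8.22, 8.54 and 8.69 in HKO livers, against 7.86, 8.15 and 8.04 in Con livers. All HKO arrays were higher, with a difference of 0.47 ± 0.14 (SE; adjusted p = 0.283). Pnpla3, a lipid droplet protein related to it, held 3.16, 3.85 and 3.48 in HKO livers, against 4.07, 3.96 and 4.78 in Con livers, a difference of -0.77 ± 0.24 (SE; adjusted p = 0.291), with its HKO mean below the median over genes. Mgll, the monoacylglycerol lipase, differed by -0.14.

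**Figure D3:**
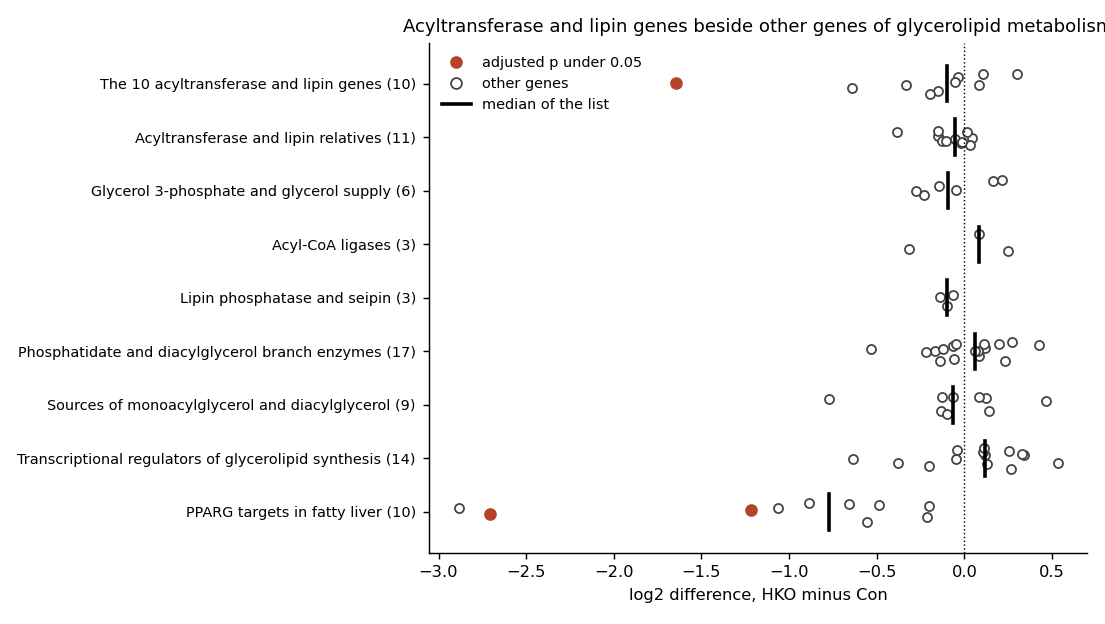
Log2 difference, HKO minus Con (horizontal axis), of the 10 genes and of 8 lists of other genes of glycerolipid metabolism, 1 point per gene with the number of measured genes in brackets; filled points passed adjusted p 0.05 in limma and bars are medians. Filled points appear for Mogat1 (-1.64), Cidea (-2.71, with HKO values not shown to be above background) and Fabp4 (-1.22); the vertical scatter within a row has no meaning.

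The 14 measured transcriptional regulators of glycerolipid synthesis had a median difference of 0.12, with 0 past the threshold in limma and 1 lower and 5 higher at an unadjusted p under 0.05, against 6.56% and 5.31% of all genes. Srebf1, which encodes SREBP and drives Gpam, held 8.13, 7.40 and 7.54 in HKO livers, against 8.34, 8.35 and 8.29 in Con livers, a difference of -0.64 ± 0.18 (SE; adjusted p = 0.254). Gpam and Srebf1 were both lower in all HKO arrays, and neither passed the threshold. Among the HKO arrays, replicate 1 was highest for Srebf1 and lowest for Gpam, whose HKO values lay only between 9.25 and 9.40. A link between Srebf1 and Gpam was not tested. Srebf2, which drives cholesterol synthesis, differed by 0.53 ± 0.17 (SE), and Rxra, the partner of PPAR receptors, by 0.27 ± 0.10 (SE). The other 3 higher ones, given to complete that count, were the coactivators Ppargc1a (0.34) and Ppargc1b (0.33), which bind PPAR receptors, and Mlxipl (0.25), the carbohydrate response factor.

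Pparg and 9 genes of fatty acid uptake, binding and storage listed with it as its targets all had lower means in HKO livers, with a median difference of -0.77. This list was drawn up after lower values of several of its genes were known, so the count is no independent evidence. Cidea, a lipid droplet protein, fell to 3.58 ± 0.30 in HKO livers, against 6.28 ± 0.84 in Con livers (SD, n = 3 each; limma adjusted p = 0.0430). The HKO arrays of Cidea were all under 3.95, the median gene, with no sign that they exceed background, so the size of its change is uncertain. Fabp4, a fatty acid binding protein, fell to 6.07 ± 0.07 in HKO livers, against 7.29 ± 0.35 in Con livers (SD, n = 3 each; limma adjusted p = 0.0444). Both calls were lost when any array but Con replicate 3 was left out (adjusted p from 0.0959 to 0.173) and with each gene's own variance (0.308 for Cidea and 0.292 for Fabp4), and that of Fabp4 also after a further quantile normalization (0.0539). Pparg itself, chosen after its values were seen, held 6.03, 6.80 and 7.34 in HKO livers, against 6.94, 7.08 and 6.75 in Con livers. It overlapped between groups, with a difference of -0.20 ± 0.29 (SE; limma adjusted p = 0.837). Within HKO livers, both Pparg and Mogat1 (3.40, 3.60 and 4.12) rose from replicate 1 to replicate 3. The targeted gene Snai2 rose in the same order (4.62, 5.23 and 5.69), so this order is not particular to Pparg and Mogat1. HKO replicate 3 had the highest Pparg value of all 6 arrays, and its Mogat1 value lay below every Con array. A link of Mogat1 to the level of Pparg or of Snai2 was not tested.

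**Figure D4:**
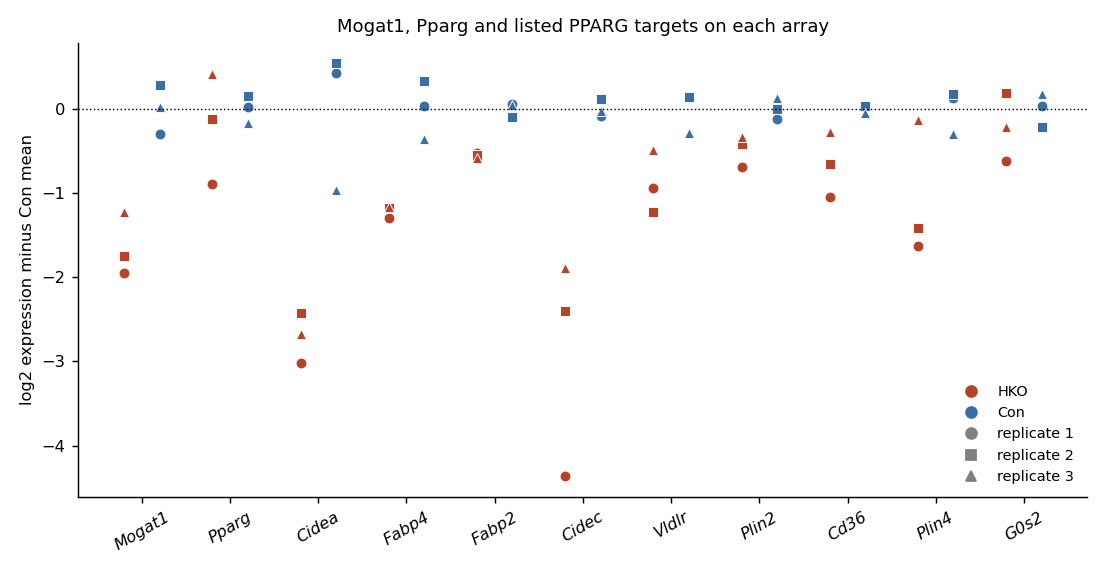
Log2 expression minus the Con mean (vertical axis) of Mogat1, Pparg and the 9 listed targets on each array, HKO left of Con within each gene and 1 symbol per replicate number. Pparg overlaps between groups (HKO 6.03 to 7.34 and Con 6.75 to 7.08 before centring), while all HKO points of Mogat1 lie below all its Con points.

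The genes whose values followed those of Mogat1 most closely over the 6 arrays were picked by the root mean square difference between centred log2 values. They were Gprc5b, an orphan receptor (0.25), Cntnap1, a membrane protein of axons (0.27), Gpnmb, a glycoprotein of lipid-laden macrophages (0.27), Slc22a27, a transporter of the organic ion family (0.27), and Anxa2, a membrane-binding annexin (0.27). The measure counts the difference between groups as well as the spread within them. Gprc5b averaged 3.89 in HKO and 5.53 in Con livers (limma adjusted p = 0.00431). Anxa2 averaged 4.54 in HKO and 6.58 in Con livers (limma adjusted p = 0.00094). Cntnap1, Slc22a27 and Gpnmb did not pass the threshold. Gpnmb averaged 3.89 in HKO and 5.08 in Con livers. The HKO means of Gprc5b and Gpnmb lay below the median over genes. As the 5 were picked for likeness to Mogat1, these calls are no independent evidence.

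Markers of other cell types that a liver piece can hold were read beside these results. Summed over 7 recruited macrophage markers, linear array values were 216 to 254 in HKO and 305 to 347 in Con livers. All 7 had lower means in HKO livers, with a median difference of -0.40. At an unadjusted p under 0.05 in limma 4 were lower, against 6.56% of all genes. Cd68 and Cd9 had the highest means of the 7, and Cd9 overlapped between groups. Of the 7, 1 was called, the integrin Itgax (3.42 in HKO and 4.44 in Con livers), with all its HKO arrays under the median over genes. For 6 stellate cell markers the sums were 641 to 808 in HKO and 826 to 913 in Con livers. For 5 endothelial markers they were 962 to 984 in HKO and 1013 to 1046 in Con livers, with 0 called in either list. Neither list fell as a whole. Of the stellate markers, 4 had lower and 2 higher means in HKO livers (Des by 0.05 and Lrat by 0.03). Among the lower ones, Col1a1 differed by -1.32 (limma adjusted p = 0.0533) and Pdgfrb by -0.73, both without overlap. Of the endothelial markers, 3 had lower and 2 higher means (Clec4g by 0.14 and Kdr by 0.07). Among the lower ones, Pecam1 differed by -0.29 without overlap and Lyve1 by -0.57 with overlap. In each of these lists 2 markers were lower and 0 higher at an unadjusted p under 0.05 in limma, against 6.56% and 5.31% of all genes. Sums of 6 Kupffer cell markers (722 to 844 in HKO and 724 to 915 in Con livers) and of 10 hepatocyte markers (21740 to 23842 and 21484 to 22574) overlapped between groups. Whether cell content plays a part in the Mogat1, Gpam and Agpat2 values was not tested.

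Because several of the 10 genes are abundant in fat, adipocyte markers were read too. Their sum over 8 genes overlapped between groups, at 428 to 563 in HKO and 459 to 550 in Con livers. Of the 8, 1 was called, Fabp4, which also stands in the PPARG list above and was lower in HKO livers, while 6 had higher means in HKO livers. Pnpla2 averaged 8.48 in HKO and 8.02 in Con livers. Pnpla2 and Fabp4 held most of the sum and moved in opposite directions without overlap, so the overlap of the sum says little about fat. Adipoq, Lep and Pnpla2 were higher in all HKO arrays, 3 of the 8, against 8.05% of all genes. The mean over 6 arrays lay below the median over genes for 5 of the 8, among them Adipoq at 3.23 in HKO and 2.96 in Con livers, Lep at 1.96 in HKO and 1.76 in Con livers, and Plin1 at 3.17 in HKO and 3.18 in Con livers. Cholangiocyte sums over 4 genes (72.6 to 117 in HKO and 86.1 to 99.6 in Con livers) and exocrine pancreas sums over 5 genes (39.9 to 44.5 in HKO and 40.1 to 47.8 in Con livers) overlapped as well. Those of 4 enterocyte genes did not (546 to 564 in HKO and 754 to 846 in Con livers), and Fabp2 held most of that sum.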

How the data were processed

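The deposited values are log2 expression, which the authors made with RMA (R 3.3.0), per the submitters' processing notes. This step corrects background, equalises the distributions of the arrays and gives each probe set a value on each array, so differences are relative to each array's distribution and those of dim genes are compressed. The genome build of the array design and any further filter are not stated in the sources used here. Arrays have no read depth; their number limits the precision.

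Of 41345 probe sets, 23521 had 1 gene in the platform annotation, 1814 several and 16010 none. A gene with several probe sets was read from the one whose mean over the 6 arrays was highest (22180 genes). HKO was compared with Con over all genes with limma 3.58.1, run under R 4.3.3 (functions lmFit and eBayes, group only, two-sided, Benjamini-Hochberg adjustment, threshold 0.05). Steps were tested on simulated data. Figures used matplotlib 3.10.9.

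The genes and lists were chosen with earlier results of these data known. Named were all 10 genes, Snai2, and from each pathway list the genes past the threshold or otherwise the 3 with the lowest p. Cell type markers are given as whole lists, with called and cell-defining genes named. Genes of the lists without a probe set of their own were not analysed here. Alternatives were another quantile normalization, centring, a filter on low values, averaging or separate testing of probe sets, variance models, array weights, a replicate block, another threshold and leaving out each array.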

Additional observations from a re-analysis of the deposited data

How the results depend on the processing

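Over all genes 45 were called; the count was 138 of the 11090 genes above the median level (60 higher, 78 lower), 215 with a variance trend (100 higher, 115 lower), 239 with trend and robust fit (108 higher, 131 lower), 115 at adjusted p 0.10 (57 higher, 58 lower), 0 with each gene's own variance (2422 at an unadjusted p under 0.05), and 4 to 32 without 1 array. Of the 10 genes, 2 were called (Mogat1 and Gpam, both lower) above the median level, with either trend and at adjusted p 0.10, 0 with each gene's own variance, and 0 to 1 without 1 array. Mogat2 was not tested above the median level. Snai2 stayed at -2.43 (adjusted p = 0.234) with its own variance, and ran from -2.69 to -2.15 without 1 array. Without 1 array, Agpat3 ran from -0.10 to 0.012, Lpin1 from -0.12 to 0.28 and Lpin2 from -0.16 to 0.023, the only sign changes among the 10 genes in the 18 alternatives.

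Same-numbered HKO and Con arrays hardly deviated together (correlations 0.032, 0.016 and 0.021 over genes), although each HKO array correlated best with its own number, and nothing in the labels says that the numbers pair mice. With the replicate number as a block, 3 genes were called, all lower, and 0 of the 10; Snai2 was at -2.43 (adjusted p = 0.0540) and Mogat1 at -1.64 (adjusted p = 0.0514), and Cidea (0.0720) and Fabp4 (0.1004) missed the threshold. Alternatives for Cidea and Fabp4 were added after seeing the data. Dim genes such as Mogat1 in HKO, Mogat2 and Lpin3 are limited by the lack of a background measure.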
